A study of Mus musculus with 6 samples.

Results

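The genes described here encode the Sm proteins and the small nuclear ribonucleoprotein (snRNP) proteins of the spliceosome, and comprise 10 of the 23412 genes in the deposited table: Snrpa, Snrpa1, Snrpb, Snrpc, Snrpd1, Snrpd2, Snrpd3, Snrpe, Snrpf and Snrpg. The family was chosen by measured values, since Snrpf had been seen to be higher in the Htt-null line, and the other 9 genes were taken in by family name. The HN against R1 difference of Snrpf is therefore given as a description with no test. Mouse embryonic stem cells (mESCs) of the 129Sv strain were profiled by RNA-seq, with 3 libraries from the wild type line R1 and 3 from the line HN, which is Htt-/- through deletion of the promoter and exon 1 of Htt (huntingtin). Both lines were undifferentiated and grown without feeder cells, with leukemia inhibitory factor and the inhibitors SU5402, PD184352 and CHIR99021. Cells were collected in 3 batches on different dates, each batch holding both lines, so that same-date pairs could be formed. Each genotype is represented by 1 line, so the loss of Htt and any other difference between the lines cannot be told apart.

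Splicing is carried out by the U1, U2, U4/U6 and U5 snRNPs, each a small nuclear RNA with its proteins. A ring of Sm proteins is made of the products of Snrpb, Snrpd1, Snrpd2, Snrpd3, Snrpe, Snrpf and Snrpg. With the help of the SMN complex, this ring closes around the U1, U2, U4 and U5 RNAs. PRMT5 and its partners have by then methylated and held some of the Sm proteins. Particle-specific proteins then join: the products of Snrpa and Snrpc belong to the U1 snRNP, which recognizes the 5′ splice site, and the product of Snrpa1 belongs to the U2 snRNP, which binds the branch site.

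All 6 libraries held between 1640391 and 3866717 reads on genes, and values are normalized counts, in which each library was scaled by a size factor. Htt itself stood between 199 and 257 normalized counts in the R1 libraries and between 18.3 and 58.1 in the HN libraries. All 8 ES cell markers checked had reads, and their summed normalized counts were between 11344 and 16793 in R1 and between 12211 and 15869 in HN. Differences are given on the scale log2(normalized count + 1), and a gene is called at a Benjamini-Hochberg adjusted p-value under 0.05 over all 14276 genes with a mean normalized count of at least 5. All 10 genes of the family passed this filter.

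Snrpf was the member with the largest difference between the lines and the only member that was higher in every HN library than in every R1 library. It had 60.7, 77.7 and 53.9 normalized counts in the R1 libraries of dates 1, 2 and 3, and 265, 228 and 246 in the HN libraries of the same dates. The R1 values rested on 57, 105 and 40 reads, and the HN values on 218, 321 and 227 reads. The lines did not overlap: the lowest HN library was well above the highest R1 library. The means were 64.1 ± 12.2 (SD, n = 3) in R1 and 246 ± 18.9 (SD, n = 3) in HN, a ratio of 3.84. On the log2 scale the difference was 1.94, with 2.11, 1.54 and 2.17 in the same-date pairs. Of all 14276 genes tested, 5.23% were higher in every HN library than in every R1 library, and nothing is read from this share because Snrpf was selected on the same contrast.

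**Figure D1:**
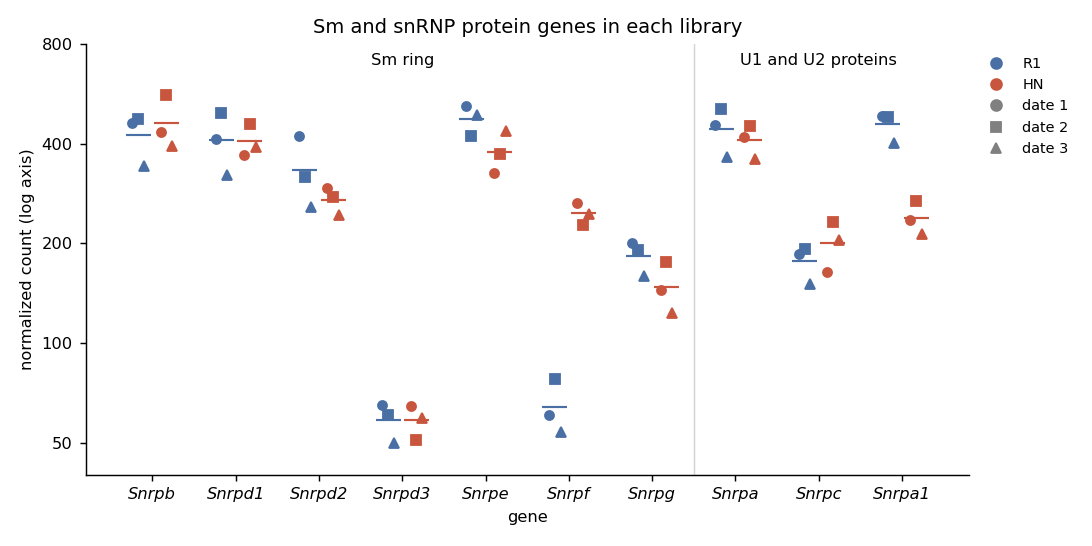
Normalized counts (log axis) of the 10 Sm and snRNP protein genes in each library, with R1 in blue and HN in red, symbols for the collection date and short lines for the mean of 3 libraries. Snrpf lies between 53.9 and 77.7 in R1 and between 228 and 265 in HN, Snrpa1 lies higher in R1, and the other 8 genes overlap between the lines.

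The Snrpf gene lies on the minus strand of chromosome 10, at chr10:93583029-93589706 in the GRCm38 build (GENCODE M21), and its transcript of 861 bases has 4 exons. Most of that transcript lies opposite exons of 2 genes on the plus strand. Exon 1 (chr10:93589539-93589706, 168 bases, of which the last 3 are coding) is covered by the first exon of the long noncoding RNA 4933408J17Rik. Exon 3 (chr10:93584030-93584094, 65 coding bases) and exon 4 (chr10:93583029-93583530, 502 bases, with 67 coding bases and the 3′ UTR) are covered by the last exon of Ccdc38, a coiled-coil protein gene. This holds for the longer annotated form of that exon. A shorter form reaches only the end of Snrpf exon 4 and no base of exon 3. Exon 2 alone (chr10:93587998-93588123, 126 coding bases) has no exon opposite to it. In all, with the longer form of the Ccdc38 exon, 735 bases (85.4%) of the Snrpf transcript were under exons of the other strand. The corresponding share was 8.6% for Snrpa, 7.6% for Snrpd3 and 0 for the other 7 members.

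**Figure D2:**
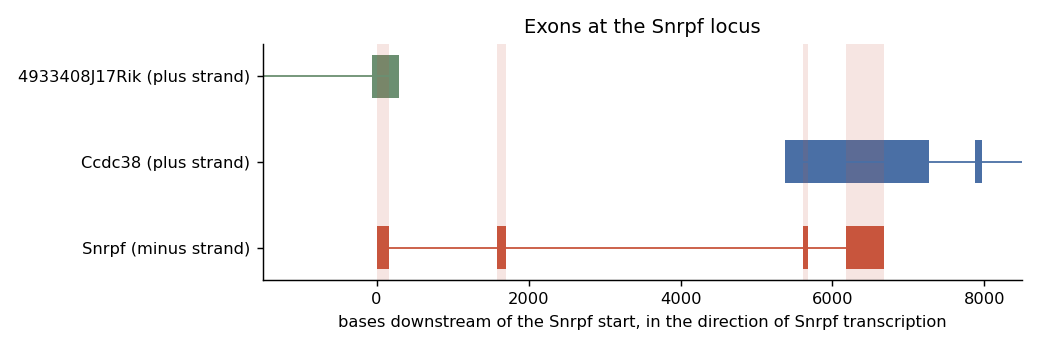
Exons (boxes) of Snrpf, Ccdc38 and 4933408J17Rik by distance in bases from the Snrpf start, read in the direction of Snrpf transcription, with the Snrpf exons shaded across all rows. Exon 2 of Snrpf, 126 bases long, is the only one with no box of the other genes in its shading.

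Nearly all of the coding sequence also exists as a processed pseudogene, a copy of the spliced mRNA elsewhere in the genome. Gm13092, at chr4:150315177-150315436 on the minus strand, was 98.5% identical to the Snrpf coding sequence over 260 aligned bases. The sequences are shown because they set which stretches of Snrpf can be told from the copy by a 50-base read taken without its mate. They are given 5′ to 3′ from GENCODE M21, with the 4 bases that differ in capitals.
Snrpf coding sequence: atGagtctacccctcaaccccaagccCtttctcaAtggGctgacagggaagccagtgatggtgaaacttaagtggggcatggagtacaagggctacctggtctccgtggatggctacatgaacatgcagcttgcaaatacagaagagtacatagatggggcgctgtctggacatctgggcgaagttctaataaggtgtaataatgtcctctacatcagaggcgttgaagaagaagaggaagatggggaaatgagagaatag
Gm13092: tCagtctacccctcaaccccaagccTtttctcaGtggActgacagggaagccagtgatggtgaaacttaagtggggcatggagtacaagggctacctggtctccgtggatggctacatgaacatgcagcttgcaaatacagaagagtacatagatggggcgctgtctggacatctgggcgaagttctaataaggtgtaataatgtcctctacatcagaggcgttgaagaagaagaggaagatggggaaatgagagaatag
The differences are G3C, C27T, A35G and G39A, written as the Snrpf base, its position counted from 1 at the first base of the coding sequence, and the Gm13092 base. From coding base 40 to coding base 261 the sequences were identical, a run of 222 bases. Exon 2 spans coding bases 4 to 129, and 90 of its 126 bases lie in that run. The pseudogenes Gm33178 (chr8:69225536-69225792) and Gm6616 (chr14:47569526-47569774) were further from Snrpf, at 93.4% and 94.0% identity. These 3 pseudogenes have no row under these names in the deposited table, so their values could not be analysed here.

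Counted in 50-base stretches of the transcripts, 21.3% of the 812 stretches of Snrpf occurred in transcripts of other genes on the same strand, 73.2% on the opposite strand and 89.5% on either, leaving 85 stretches found in Snrpf alone. Ccdc38 shared 475 of the Snrpf stretches, Gm13092 173, 4933408J17Rik 119, Gm33178 21 and Gm6616 5. Reads came in pairs, and these counts take each stretch alone, so a mate elsewhere in the transcript was not considered. For the other 9 members the share on either strand was between 0 (Snrpb) and 20.2% (Snrpa), and it was 3.3% for Snrpa1. The library kit does not mark strand, and how reads that fit more than 1 gene were counted is not given in the sources used here, so the level of Snrpf is uncertain in both lines.

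The neighbours had their own rows and stood below Snrpf in every library. Ccdc38 had 8.52, 10.4 and 25.6 normalized counts in R1 and 21.9, 14.9 and 40.1 in HN, and the lines overlapped. The third R1 library was the closest, with 19 reads on Ccdc38 and 40 on Snrpf. The HN against R1 difference of Ccdc38 was 0.79 on the log2 scale (SE 0.51), with an adjusted p of 1 in limma and 0.122 with the replicate block. 4933408J17Rik had at most 8 reads in any R1 library, with 0, 0 and 10.8 normalized counts in R1 and 6.08, 1.42 and 11.9 in HN. Across dates, Ccdc38 was higher at the third date by 1.23 on the log2 scale (adjusted p = 0.00485, limma), while Snrpf differed by -0.17 (adjusted p = 0.384, limma). The mean of 4933408J17Rik was 3.04, 0.71 and 11.35 normalized counts at dates 1, 2 and 3. It passed the filter only through the third date, so no date test is given for it. The part of these genes and of the pseudogenes in the Snrpf values was not tested.

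Snrpa1 was the member with the largest difference among the 9 not selected on their own values. It had 486, 483 and 402 normalized counts in R1 and 235, 269 and 213 in HN, so every HN library was below every R1 library. Among all genes tested, 5.54% had every HN library below every R1 library. The means were 457 ± 48.0 (SD, n = 3) in R1 and 239 ± 28.2 (SD, n = 3) in HN, a ratio of 0.523. The log2 difference was -0.93 (SE 0.19, 95% confidence interval -1.34 to -0.52), and the same-date pairs gave -1.05, -0.84 and -0.91. Without a block the adjusted p was 0.104 in limma and 0.104 in edgeR, so Snrpa1 was not called by these tests. It was called by DESeq2 without a block (adjusted p = 0.000216) and by limma with the replicate block, which compares the lines within dates (adjusted p = 6.89e-08). Over the 18 alternative settings its adjusted p ran from 2.31e-10 to 0.568 and its log2 difference from -1.02 to -0.85.

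Snrpa1 lies at chr7:66059003-66074587 on the plus strand, and no base of its transcript of 1248 bases is under an exon of the other strand. The genes on either side of Snrpa1, chosen after their values were seen, differed by less than the spread between replicates. Pcsk6, a proprotein convertase gene, had a mean of 237 ± 39.5 (SD, n = 3) in R1 and 229 ± 63.8 (SD, n = 3) in HN. Vimp, a selenoprotein gene named Selenos in GENCODE, had 58.0 ± 6.59 (SD, n = 3) in R1 and 57.3 ± 7.05 (SD, n = 3) in HN. The log2 differences were -0.08 (95% interval -0.62 to 0.46) and -0.02 (95% interval -0.55 to 0.51).

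The protein made from Snrpa1 binds the U2 RNA together with the product of Snrpb2. Snrpb2 had 335, 350 and 274 normalized counts in R1 and 283, 298 and 270 in HN, with a log2 difference of -0.16 (95% interval -0.57 to 0.24, adjusted p of 1 in limma). The ratio of Snrpa1 to Snrpb2 normalized counts was 1.45, 1.38 and 1.47 in the R1 libraries and 0.828, 0.903 and 0.791 in the HN libraries. The means of this ratio were 1.43 ± 0.046 (SD, n = 3) and 0.841 ± 0.057 (SD, n = 3), and the lines did not overlap. The ratio is given as a description: with 3 libraries against 3, an exact permutation test of a single value cannot go below 0.1.

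Apart from Snrpf, which was not tested, no Sm ring gene was called between the lines without a block. Snrpe and Snrpg, whose proteins form a subcomplex with that of Snrpf, were the members with the next largest differences. Snrpe had 521, 422 and 487 normalized counts in R1 and 327, 373 and 435 in HN, and the third HN library exceeded the second R1 library. Its log2 difference was -0.33 (SE 0.19, 95% interval -0.75 to 0.08), with -0.67, -0.18 and -0.16 in the pairs. Snrpe was not called without a block (adjusted p of 1 in limma) and was called with the replicate block in limma (adjusted p = 0.0428) and in edgeR (adjusted p = 0.0302), but not with it in DESeq2 (adjusted p = 0.195). Snrpg had 200.1, 192 and 159 normalized counts in R1 and 145, 176 and 123 in HN. Its log2 difference of -0.32 (95% interval -0.78 to 0.15) was called in no test of the lines.

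The D proteins and B close the ring on its other side. Snrpd2 had 423, 317 and 257 normalized counts in R1 and 293, 276 and 244 in HN, a log2 difference of -0.27 (95% interval -0.74 to 0.20). Snrpb differed by 0.12 (95% interval -0.34 to 0.57), with means of 426 ± 72.9 (SD, n = 3) in R1 and 462 ± 86.7 (SD, n = 3) in HN. Snrpd1 (410 ± 87.1 against 407 ± 47.5) and Snrpd3 (58.5 ± 7.76 against 58.4 ± 6.81; SD, n = 3 each) had log2 differences of 0.01 and -0.00. The intervals ran from -0.45 to 0.46 for Snrpd1 and from -0.53 to 0.53 for Snrpd3. None of these 4 was called in any test of the lines.

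Neither of the U1 members was called in any test of the lines. Snrpa had a mean of 443 ± 73.6 (SD, n = 3) in R1 and 410 ± 48.1 (SD, n = 3) in HN, a log2 difference of -0.10 (95% interval -0.53 to 0.33). Snrpc had 177 ± 22.4 (SD, n = 3) and 200.2 ± 34.0 (SD, n = 3), a log2 difference of 0.17 (95% interval -0.28 to 0.63). Snrnp70, which encodes a further U1-specific protein and is no member, had 323 ± 47.2 (SD, n = 3) and 330 ± 61.0 (SD, n = 3), a log2 difference of 0.02.

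Among the 9 members other than Snrpf, 0 were called without a block by limma, 1 (Snrpa1) had an unadjusted p under 0.05, 0 were called by edgeR and 1 (Snrpa1) by DESeq2. Over all genes, limma without a block called 0.245% and DESeq2 0.778%. With the replicate block, 2 of the 9 (Snrpa1 and Snrpe) were called lower in HN and 0 higher, where 4.02% of the tested genes were called lower and 5.46% higher. The median log2 difference of the 9 was -0.10, against -0.01 for all genes tested.

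**Figure D3:**
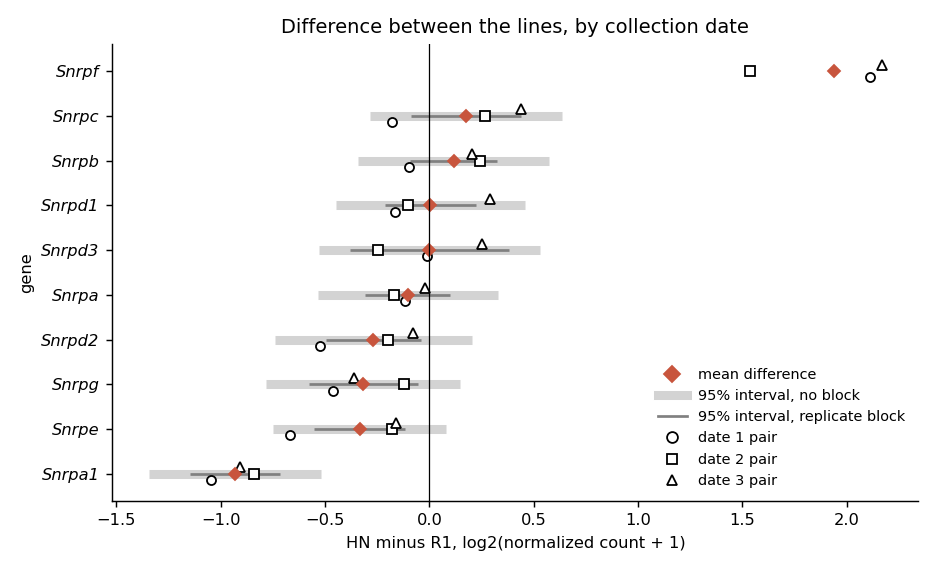
HN minus R1 differences in log2(normalized count + 1) of the 10 genes, with open symbols for the 3 same-date pairs, red diamonds for the mean, and 95% intervals from limma without a block (light bars) and with the replicate block (dark lines); Snrpf has no interval since it was selected on this contrast. Snrpf stands at 1.94 and Snrpa1 at -0.93, and the remaining means lie between -0.33 and 0.17.

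The same values give the make-up of the Sm ring transcripts. Snrpf took 2.83%, 3.81% and 3.23% of the summed normalized counts of the 7 Sm ring genes in the R1 libraries and 14.0%, 10.7% and 13.0% in the HN libraries. The sum over the other 6 ring genes was 1887 ± 243 (SD, n = 3) in R1 and 1725 ± 148 (SD, n = 3) in HN, which differed by less than the spread between replicates of R1. Per kilobase of transcript, Snrpf stood at 0.0800 ± 0.024 (SD, n = 3) of the level of Snrpe in R1 and at 0.387 ± 0.076 (SD, n = 3) in HN. Against Snrpg the same ratio was 0.428 ± 0.064 (SD, n = 3) in R1 and 2.09 ± 0.448 (SD, n = 3) in HN. These ratios use the values that selected Snrpf and are a description only. The ratios per kilobase also divide Snrpf by all 861 bases of its transcript, of which 735 lie under exons of the other strand.

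**Figure D4:**
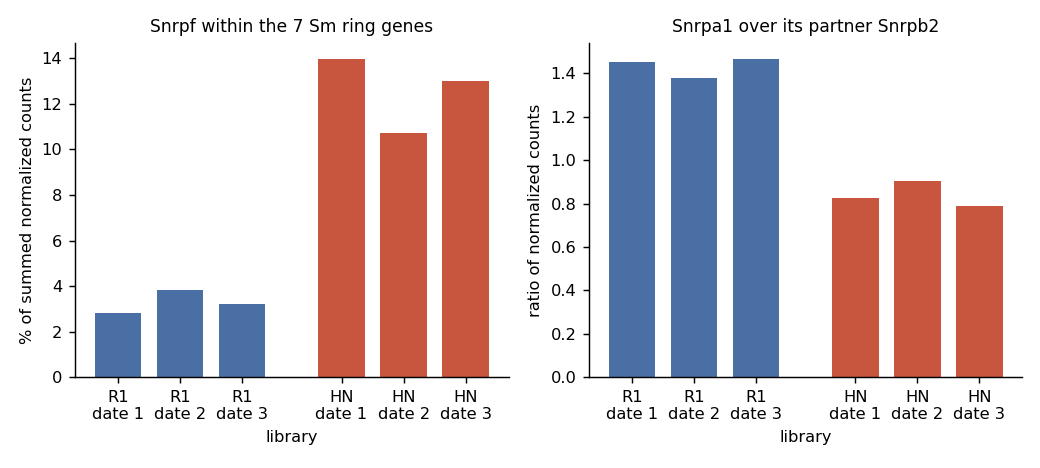
Left, Snrpf as a percentage of the summed normalized counts of the 7 Sm ring genes in each library; right, the ratio of Snrpa1 to Snrpb2 normalized counts. Snrpf takes 2.83 to 3.81% in R1 (blue) and 10.7 to 14.0% in HN (red), and the Snrpa1 ratio is 1.38 to 1.47 in R1 and 0.791 to 0.903 in HN.

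Levels of different genes were compared as normalized counts per kilobase of the annotated transcript. Snrpe was highest in both lines, at 947 ± 99.9 (SD, n = 3) in R1 and 752.5 ± 108 (SD, n = 3) in HN, and no library of another member reached its range. Snrpd1 and Snrpb followed in both lines, and their ranges overlapped. Snrpd3 was lowest, at 19.3 ± 2.56 (SD, n = 3) in R1 and 19.2 ± 2.24 (SD, n = 3) in HN. These values are divided by its transcript of 3036 bases, the longest of the family. Snrpf held rank 9 of 10 in R1, at 74.4 ± 14.2 (SD, n = 3), and was separate from its neighbours in the order, Snrpg and Snrpd3. In HN it held rank 5, at 286 ± 21.9 (SD, n = 3), and overlapped with Snrpa at 301 ± 35.3 (SD, n = 3). Both ranks divide by all 861 bases of the Snrpf transcript. They are uncertain, since 735 of these bases lie under exons of the other strand. Snrpa1 held rank 4 in R1, at 366 ± 38.5 (SD, n = 3), where it overlapped with Snrpb and Snrpa, and rank 7 in HN, at 192 ± 22.6 (SD, n = 3), where it overlapped with Snrpc and Snrpd2.

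The genes whose log2 values followed Snrpf most closely over the 6 libraries were Pnrc1, a nuclear receptor coactivator gene (Pearson r = 0.994), the zinc finger gene Zfp386 (r = 0.989) and Ube2v2, a ubiquitin-conjugating enzyme variant gene (r = 0.987). The points share line and date, so these values describe the same split between the lines. Pnrc1 had a mean of 150.5 ± 10.3 (SD, n = 3) in R1 and 252 ± 12.5 (SD, n = 3) in HN. Zfp386 had 44.6 ± 4.98 (SD, n = 3) and 92.0 ± 11.1 (SD, n = 3), and Ube2v2 had 54.4 ± 3.51 (SD, n = 3) and 78.4 ± 3.16 (SD, n = 3).

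The other proteins of the splicing machinery were described from 8 lists, of which 102 of 103 genes were tested. In HN against R1 without a block, 0 of the 102 were called by limma, edgeR or DESeq2, and 4 had an unadjusted p under 0.05 in limma. Their median log2 difference was -0.06, against -0.01 for all genes. The gene that was not tested was Snrpn, the paralog of Snrpb used in neurons, which had 1 read in 1 HN library and 0 reads in the other 5 libraries.

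Within dates, limma with the replicate block called 3 of these 102 genes higher in HN and 7 lower, where 5.46% and 4.02% of the tested genes were called, so the counts stood near the background. DESeq2 with the block kept the 3 higher calls (Prmt5, Prpf8 and Srsf2) and, of the lower ones, Prmt7 alone. Of the 20 SMN and PRMT5 assembly factors, which build the Sm ring, 1 was called higher and 3 lower. Prmt5, the methyltransferase that modifies Sm proteins, stood at 0.49 on the log2 scale (adjusted p = 0.00119, limma with the block) and Prmt7, another arginine methyltransferase, at -0.61 (adjusted p = 0.000564). Gemin6, a subunit of the SMN complex, stood at -0.50 (adjusted p = 0.0393), and its call was lost in DESeq2 with the block (adjusted p = 0.332).

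Of the 18 U4/U6 and U5 proteins, the central U5 protein gene Prpf8 was higher by 0.31 (adjusted p = 0.0189, limma with the block). The U5 protein gene Snrnp40 was lower in the same fit, at -0.31 (adjusted p = 0.0433), as was Usp39, at -0.34 (adjusted p = 0.0305). Among the LSm genes, relatives of the Sm genes, Lsm1 was lower at -0.48 (adjusted p = 0.0219), and the other 7 genes of that list were not called. The protein of Lsm1 is not part of the LSm ring of the spliceosome. Ppie of the Prp19 complex stood at -0.62 (adjusted p = 0.0206) and the SR factor gene Srsf2 at 0.41 (adjusted p = 0.00308). In DESeq2 with the block, the adjusted p was 0.175 for Snrnp40, 0.135 for Usp39, 0.229 for Lsm1 and 0.274 for Ppie. None of the 18 U1 and U2 proteins, the 9 minor spliceosome proteins and the tested Sm ring paralogs was called with the block.

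The collection dates gave a contrast that the choice of the family did not use. Each date holds 1 library of each line, and the third date was compared with the mean of the first and second, with line as a term. Since the third date is a single collection, the p-values by date do not measure the spread between collections. This date had been seen to stand apart in these data before. In the deposited scaling, 5 of the 10 members were called lower at the third date by limma and 0 higher, where 23.2% of all genes were called lower and 17.8% higher.

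Snrpb stood at -0.39 on the log2 scale in limma (SE 0.11, adjusted p = 0.0058), with 463 and 473 normalized counts in R1 on the first and second dates and 342 on the third, and 433, 560 and 394 in HN. Snrpa stood at -0.34 (adjusted p = 0.0115), Snrpd2 at -0.36 (adjusted p = 0.0154), Snrpd1 at -0.28 (adjusted p = 0.0436) and Snrpg at -0.33 (adjusted p = 0.0484). The members not called were Snrpa1 (-0.25, adjusted p = 0.0687), Snrpd3 (-0.14, adjusted p = 0.603), Snrpc (-0.13, adjusted p = 0.469), Snrpf (-0.17, adjusted p = 0.384) and Snrpe (0.19, adjusted p = 0.192), the only member with a positive value.

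These date calls depended on the scaling and on single libraries. Median centring moved the median of all genes from -0.07 to 0.06 and the split of all calls from 2535 higher and 3307 lower to 3225 and 1977, and left 0 members called lower and 1 (Snrpe) called higher. Quantile normalization also left Snrpe alone, higher, where 1736 of all genes were called higher and 1877 lower. DESeq2 called 0 members, as did limma without the variance trend. Without the third R1 library or without the second HN library 0 members were called, and without the second R1 library 1 was. Without the first R1 library 2 were called lower and 1 higher. The median of the members was -0.27, against -0.07 for all genes tested and -0.26 for the 7659 genes with a mean of at least 50, of which 39.2% were called lower in a fit on those genes. Under quantile normalization the median was -0.01 for the members and -0.01 for all genes.

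**Figure D5:**
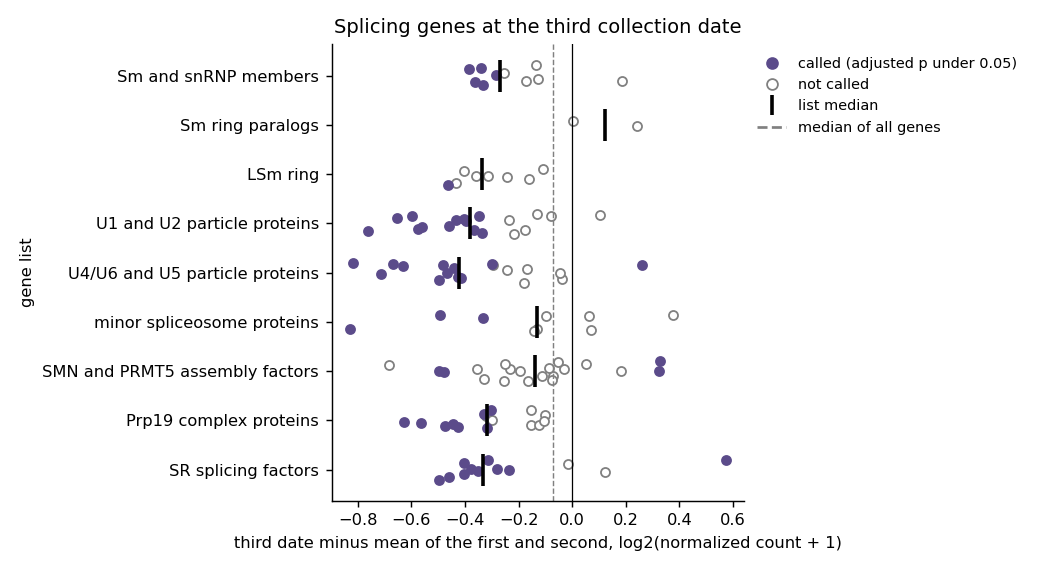
Differences between the third collection date and the mean of the first and second, in log2(normalized count + 1), for the members and the 8 lists of other splicing genes. Filled points are called by limma at an adjusted p under 0.05, thick ticks are list medians, and the dashed line is the median of all genes at -0.07; 5 members are called lower, and these calls are lost under median centring.

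Of the 102 other splicing genes, 46 were called lower at the third date in the same fit and 4 higher, where 23.2% and 17.8% of all genes were called, and their median was -0.30. On the genes with a mean of at least 50, 46 of the 96 splicing genes among them were called lower, beside the 39.2% of all such genes given above. Under median centring 28 were called lower and 6 higher, where 13.8% of all genes were called lower and 3225 of 14276 higher. Under quantile normalization 13 and 6 were called, with a median of -0.06, where 13.1% were called lower and 1736 genes higher. The lower calls thus stood near the share of all genes under quantile normalization. The total of 50 calls fell to 29 without the second R1 library, 25 without the third R1 library and 33 without the second HN library. In these 3 fits 14.2%, 12.7% and 13.5% of all genes were called lower. Of the 18 U1 and U2 proteins 12 were called lower and 0 higher, led by U2af2, which binds the polypyrimidine tract (-0.76), and Sf3b4 (-0.65). Of the 18 U4/U6 and U5 proteins 11 were lower, among them Cd2bp2 (-0.82) and Sart3 (-0.71), and Eftud2, the U5 GTPase gene, was higher (0.26).

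Of the 12 SR factors 9 were called lower, with Srsf11 at -0.50 and Srsf3 at -0.46, and Srsf4 was higher (0.57). In the Prp19 complex 8 of 15 were called lower, among them Bcas2 (-0.63) and Xab2 (-0.56). Of the 9 minor spliceosome proteins 3 were called lower, with Zrsr2 at -0.83 and Snrnp48 at -0.49, and in the LSm ring Lsm2 was called lower (-0.46). Among the assembly factors 2 of 20 were lower, Prmt5 (-0.50) and its partner Wdr77 (-0.48), and 2 were higher, the SMN complex genes Gemin4 (0.33) and Gemin5 (0.32). Neither of the tested Sm ring paralogs was called.

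The summed levels of markers of other cells moved with the dates too. Of the 10 differentiated cell markers 9 were called higher at the third date and 0 lower, where 17.8% and 23.2% of all genes were called. Their summed normalized counts were 274 to 287 on that date and 90.5 to 152 on the earlier dates. Of the 6 fibroblast feeder markers 4 passed the filter and were called higher, with sums of 68.2 to 104 against 12.0 to 54.3. In both lists the levels were low on the earlier dates and the filter used the third date too. Nothing is therefore read from the 9 calls of differentiated cell markers or from the 4 calls of feeder markers. Of the 8 ES cell markers 5 were called lower, beside 23.2% of all genes and 39.2% of the genes with a mean of at least 50. The ES cell sums were 11344 to 12211 against 14848 to 16793. Marker calls by date were made in the deposited scaling alone. No marker of these lists was at 0 in all 6 libraries. In bulk samples, fewer cells of a type and less RNA per cell cannot be told apart, and the part of these markers in the values of the members was not tested. Between the lines, limma without a block called 0 markers of these lists and DESeq2 called 1 ES cell marker lower in HN. Over all genes these fits called 0.245% and 0.778% in either direction. With the replicate block, 4 ES cell markers were called higher and 1 lower in HN, 1 differentiated cell marker higher and 1 feeder marker lower. In that fit 5.46% of all genes were called higher and 4.02% lower.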

How the data were processed

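RNA-seq was made from R1 and HN mESCs with a TruSeq RNA v2 kit and paired 50-base reads. The authors aligned reads to mm10 (GRCm38) with STAR, removed duplicates with Picard, counted reads on exons with HTSeq and divided by DESeq2 size factors. The deposited values are thus a normalized signal per gene, a scaled count. Versions, gene annotation and strand setting are not given in the sources used here. Whole reads were recovered from the steps between values (100% within 0.01 of a whole number) and used for depth and count tests.

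Lines were compared with limma 3.58.1 in R 4.3.3 on log2(normalized count + 1), with a variance trend and no block, over 14276 genes with a mean of at least 5, with p-values adjusted by the Benjamini-Hochberg method. Dates were compared with line and date as terms. On the recovered reads, edgeR 4.0.16 (quasi-likelihood) called 16 genes higher and 18 lower in HN, and DESeq2 1.42.0 called 68 and 43; limma called 17 and 18, and 780 and 574 with the replicate block. Replicate numbers pair the libraries through the collection dates in the labels, and same-date deviations from the line means correlated at 0.25, 0.688 and 0.768 across genes. Pairs of different dates correlated at -0.708 to 0.339. The first R1 library followed the second HN library (0.339) more closely than the HN library of its own date (0.25), so these values do not set the first pair apart. Replicates of a line differed by more than sampling noise (chi-square per degree of freedom 4.70 to 9.91). Whether batches were independent cultures is not given, so p-values of the lines without a block measure the spread between these collections. With date as a term, p-values rest on how far the difference between the lines varied over the dates. The third date is a single collection, so p-values by date do not measure the spread between collections.

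The members and lists were chosen with earlier results of these data known. Named genes were the members, Htt, Snrpn, Snrpb2, Snrnp70, the tested gene on each side of Snrpf, the 3 genes most correlated with Snrpf, the 5 sharing most 50-base stretches with it, and in each list genes called without a block and, with the block and for the dates, up to 2 at each end of the called differences. Pcsk6 and Vimp, on either side of Snrpa1, were added after their values were seen, and Gm45213 for the stretches it shares with Snrpa1. Positions and transcript sequences came from GENCODE M21, with lengths from the longest principal transcript. Alternatives were the block, edgeR, DESeq2, pseudocounts of 0.1 and 10, filters of none and of a mean of at least 50, no variance trend, quantile normalization, median centring and leaving out each library. Rows in which a date stands in place of a gene name were left unnamed.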

Additional observations from a re-analysis of the deposited data

How the results depend on the processing

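The log2 difference of Snrpf was 1.80 to 1.95 under 9 alternatives with all libraries and 1.82 to 2.08 when 1 library was left out. Of the 9 other members, 0 were called when any 1 library was left out, 2 with the replicate block in limma or edgeR, and 1 with it in DESeq2, with DESeq2 alone, with median centring or with quantile normalization. For the 102 splicing genes between the lines, the count was 10 with the replicate block, 12 with it in edgeR, 4 with it in DESeq2 (3 higher and 1 lower), and 0 when any 1 library was left out. Members called by date numbered 3 in edgeR, 3 with a pseudocount of 0.1, 3 with no filter, 0 in DESeq2 and with no variance trend, 1 with median centring or quantile normalization, and 0 to 6 with 1 library left out. Splicing genes called by date numbered 21 in DESeq2, 19 with quantile normalization, 3 with no variance trend, and 25 to 55 with 1 library left out.

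The log2 differences that changed sign were of genes not called in the limma fit. Between the lines, Snrpd1 gave -0.004 in edgeR with the replicate block, -0.007 in DESeq2 with it, -0.007 in edgeR, -0.015 in DESeq2 and -0.029 with quantile normalization, and Snrpd3 gave 0.013 with median centring and 0.046 with quantile normalization. With 1 library left out, Snrpd1 ran from -0.16 to 0.152, Snrpd3 from -0.11 to 0.091, Snrpa from -0.237 to 0.006 and Snrpb from -0.034 to 0.223. By date, quantile normalization gave 0.051 for Snrpa1 (-0.253 in the deposited scaling), 0.159 for Snrpc and 0.008 for Snrpf, and median centring gave 0.007 for Snrpc. With 1 library left out, Snrpc ran from -0.325 to 0.069, Snrpd3 from -0.326 to 0.053 and Snrpf from -0.343 to 0.001. The cause was not tested, except that fits without a library rest on fewer samples. Depth limits Snrpf most in R1, where it rested on 40 to 105 reads.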
